A study of Homo sapiens with 66 samples.

Results

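The genes described here are the cytosolic ribosomal protein genes, the protein-coding genes whose symbol is RPL or RPS followed by a number, with an optional suffix of A, X, Y or L, together with RPLP0, RPLP1, RPLP2 and RPSA. Pseudogenes and the RPS6K kinases were left out. The rule took 81 of the 60603 genes in the count tables, 32 of the small subunit and 49 of the large subunit. The members were chosen by symbol, with their share of the counts and their courses over the 22 groups known at the time, so both measures are given as descriptions with no test.

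The libraries come from wild-type H9, an established line of human embryonic stem cells (hESC), led through neural differentiation. The stem cells were seeded and kept in mTeSR medium for 1 day. They were then turned into human neuromesodermal progenitors (hNMP, days 1, 2, 3 and 4, labelled D1 to D4) with FGF-2, CHIR99021, SB431542 and Dorsomorphin. By that schedule these factors came after the first day, and the labels do not say whether hNMP-D1 had received them. A neural determination stage (NeuDet, days 1 to 6) followed, with FGF-8 and the gamma-secretase inhibitor Compound E added. The resulting human spinal cord neural progenitor cells (hSCNPC) were passaged in SB431542, CHIR99021 and Purmorphamine and sampled at passages 5, 10, 20, 30 and 40 (P5 to P40). Human motor neurons (hMN) were made from them in Purmorphamine, Compound E, BDNF, GDNF and NT-3 and sampled on days 6, 12, 18, 24, 30 and 42, which gives 22 groups of 3 libraries and 66 libraries in all, every one from this single line. Motor neurons were set against hSCNPC-P10, since no library labelled day 0 of hMN was analysed here, and these groups lie in separate count tables, so that table and group cannot be told apart.

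Each ribosome joins a small subunit, which reads the mRNA, to a large subunit, which makes the peptide bond, and one copy of nearly every ribosomal protein goes into each particle. Messenger RNAs for these proteins are very abundant in growing cells. Most of them begin with a C at the cap followed by a run of pyrimidines, the terminal oligopyrimidine (TOP) tract, through which the kinase mTOR controls their translation by way of LARP1. Cells that stop dividing, neurons among them, are known to make fewer new ribosomes than proliferating progenitors. A few ribosomal proteins have a second gene, such as RPL39L beside RPL39, RPS27L beside RPS27 and RPL22L1 beside RPL22.

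The start sites of 12 genes are shown, because the members differed in how far they dropped in motor neurons and the TOP tract is the best known sequence that they share. Each window holds 15 bases before the RefSeq start and 15 bases from it (GRCh38.p14), and the capitals mark the unbroken run of C or T that opens at the start base. RPS6, RPL12 and RPLP0 dropped far, RPS23, RPS29, RPL15 and RPS26 dropped less, and the others are parent genes and their paralogs.
RPS6, chr9:19380222-19380251, minus strand: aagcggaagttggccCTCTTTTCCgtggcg
RPL12, chr9:127451392-127451421, minus strand: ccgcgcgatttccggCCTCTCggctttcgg
RPLP0, chr12:120201097-120201126, minus strand: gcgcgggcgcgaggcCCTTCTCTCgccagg
RPS23, chr5:82278340-82278369, minus strand: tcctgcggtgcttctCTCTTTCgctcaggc
RPS29, chr14:49598696-49598725, minus strand: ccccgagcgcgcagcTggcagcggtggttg
RPL15, chr3:23916530-23916559, plus strand: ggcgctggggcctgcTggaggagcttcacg
RPS26, chr12:56041903-56041932, plus strand: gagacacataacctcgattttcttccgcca
RPS27, chr1:153990747-153990776, plus strand: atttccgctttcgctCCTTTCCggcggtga
RPS27L, chr15:63157463-63157492, minus strand: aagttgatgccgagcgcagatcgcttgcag
RPL39, chrX:119791616-119791645, minus strand: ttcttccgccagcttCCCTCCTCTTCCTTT
RPL22, chr1:6199581-6199610, minus strand: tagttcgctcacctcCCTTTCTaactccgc
RPL22L1, chr3:170870181-170870210, minus strand: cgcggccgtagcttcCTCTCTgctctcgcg
RPS29 and RPL15 open with a single T and RPS26 and RPS27L with no pyrimidine at the annotated base. For each gene only the first RefSeq entry listed was read, so a missing run can depend on that choice. The RPL15 window lies before the GENCODE start of its gene (23916591), and the RPS26 window lies inside its gene, which starts at 56041351. The RPS29 and RPS27L windows also lie inside their genes, which start on the minus strand at 49599164 and 63158021. A start motif, a C at the start base followed by at least 4 bases that are each C or T, read on the gene's own strand, was found in 42 of the 64 members that matched a RefSeq entry (65.6%), against 1429 of 35116 promoters (4.07%). When the motif was allowed to open within 5 bases of the start, 50 of 64 members held it (78.1%), against 21.1% of all promoters. Members were read by a single entry per gene, while the percentages of all promoters count every entry. A match describes these letters and is not evidence of a used start site. The genes shown were picked by their values or as paralogs and do not stand for all members. RPL14, which holds the motif, had means of 358 CPM in hMN-D6 and 773 CPM in hSCNPC-P10, a smaller drop than that of RPS29 (204 and 510 CPM). Between these groups the median log2 fold change was -1.85 for members with the motif and -1.79 for matched members without it.

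Each library held between 14142238 and 40204753 counts (median 20676228), and mitochondrially encoded genes took 3.34 to 8.13% of them. The marker lists followed the labels in part. Summed motor neuron markers (MNX1, ISL1, CHAT and 5 others) were at 80.4 to 137 CPM (counts scaled to a common library total) in the hMN libraries and at 1.56 to 9.78 CPM elsewhere. Summed pluripotency markers were at 4405 to 4557 CPM in hESC, inside the range of the hNMP libraries (2941.5 to 5287 CPM). They were at 954 to 2146 CPM in NeuDet, 96.6 to 469.5 CPM in hSCNPC and 20.2 to 296 CPM in hMN. Neuromesodermal markers (TBXT, CDX2 and 6 others) reached only 70.6 to 457 CPM in hNMP, against 999 to 1335 CPM in the NeuDet libraries that came after. In bulk RNA, fewer cells of a type and less RNA per cell cannot be told apart. The labels do not say that replicates were separate cultures, so p-values measure only the spread between these libraries.

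Ribosomal protein genes took the largest share of the counts in early spinal cord progenitors and the smallest in motor neurons. The share was 11.6, 10.7 and 10.8% in hSCNPC-P5 and 1.61, 1.57 and 1.64% in hMN-D24, a ratio of means of 6.87 ± 0.331 (SD, n = 3 each). These are the groups at the ends of the order, and counting error was small, since the widest 95% Wilson interval of a library's share was ± 0.0149 percentage points. Stem cells stood low among the groups before motor neurons, with 6.15, 5.18 and 5.12%, a mean of 5.48 ± 0.576% (SD, n = 3). The first of these libraries lay above the other two, and the hESC libraries had the widest spread of all groups.

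Along the differentiation the share moved in steps. It was 5.28 ± 0.139% in hNMP-D1, 5.85 ± 0.193% in D2, 6.43 ± 0.279% in D3 and 6.95 ± 0.0959% in D4 (mean ± SD, n = 3 here and below). In NeuDet it was 6.17 ± 0.21% on D1, 6.88 ± 0.347% on D2, 6.19 ± 0.511% on D3, 6.12 ± 0.147% on D4, 6.63 ± 0.366% on D5 and 8.34 ± 0.462% on D6. The NeuDet libraries thus lay between 5.82 and 7.14% up to D5, and the D6 libraries, at 8.38, 8.78 and 7.86%, lay above all hNMP and earlier NeuDet libraries. In hSCNPC the share was 11.04 ± 0.483% at P5, 9.43 ± 0.0889% at P10, 8.84 ± 0.108% at P20, 9.32 ± 0.291% at P30 and 9.28 ± 0.0913% at P40. Motor neurons held 2.95 ± 0.25% on D6, 1.99 ± 0.105% on D12, 1.69 ± 0.0975% on D18, 1.61 ± 0.0325% on D24, 1.64 ± 0.0307% on D30 and 2.07 ± 0.0445% on D42. All 18 hMN libraries lay below all 48 others, and the 3 D42 libraries, at 2.07, 2.11 and 2.02%, lay above those of D18, D24 and D30.

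**Figure D1:**
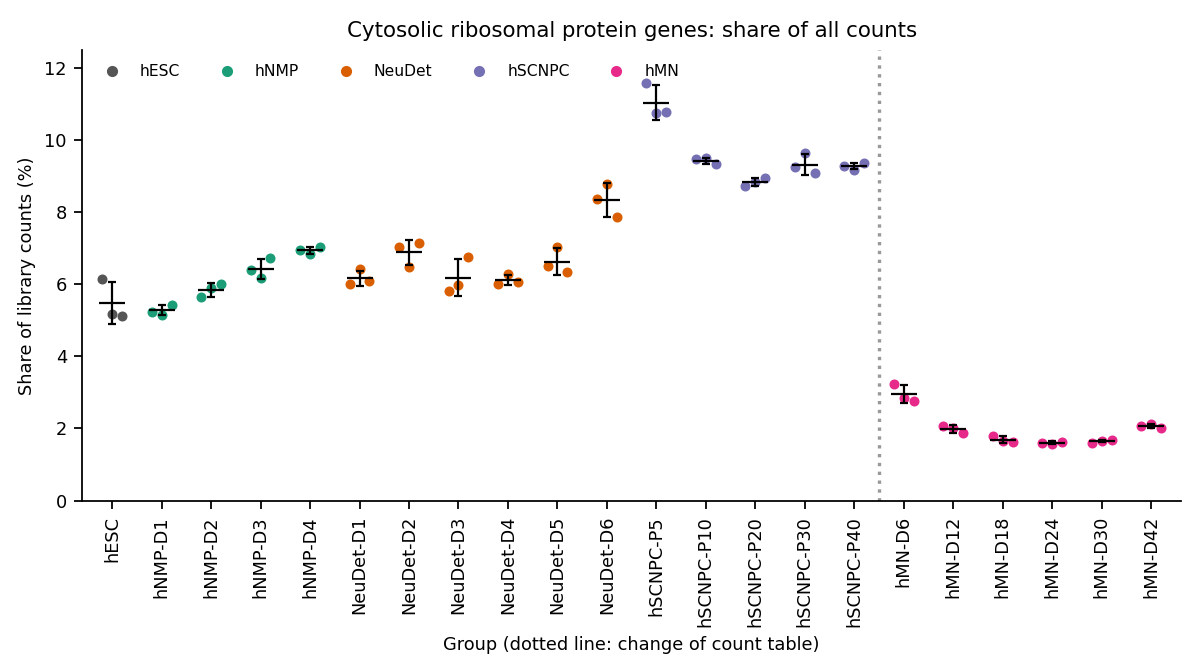
Share of each library's counts in the 81 ribosomal protein genes, in percent on a linear axis from 0, by group in the order of the differentiation; points are libraries and the horizontal bars are group means with their SD. The 3 hSCNPC-P5 libraries sit at 10.7 to 11.6% and the 18 hMN libraries at 1.57 to 3.24%.

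When the 22 groups were ordered by mean share, most neighbours were not separated by their libraries. The libraries did not overlap between hSCNPC-P5 and hSCNPC-P10, between hSCNPC-P40 and hSCNPC-P20, between NeuDet-D6 and hNMP-D4, between hNMP-D1 and hMN-D6, between hMN-D6 and hMN-D42, or between hMN-D12 and hMN-D18. Within the members the balance of the subunits moved over a narrow range, but motor neurons were set apart. Small subunit genes gave 33.0 to 37.0% of the ribosomal protein counts over the 66 libraries, with 35.2 ± 0.107% in hSCNPC-P5 and 35.9 ± 0.320% in hESC. All 18 hMN libraries, at 33.0 to 34.0%, lay below all 48 others, the lowest of which was an hSCNPC-P30 library at 34.3%. The 1587 annotated ribosomal protein pseudogenes took 0.0800 to 0.499% of a library.

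Most members followed one common course. Of the 77 members kept in both fits, 63 had their highest group mean in hSCNPC-P5 and 53 had their lowest in hMN-D24, with 14 more lowest in hMN-D30, 7 in hMN-D18, 2 in hMN-D12 and 1 in hMN-D42. The Pearson correlation of a member's group means (log2 of CPM + 0.5) with the median course of the members over the 22 groups had a median of 0.989, and 63 of 77 were above 0.95, where the points share libraries and depth and each member is part of the median. The most typical courses were those of RPS3, a small subunit protein at the mRNA entry, RPL11, which also binds MDM2, and RPS20, each at 0.998. RPL11 had 189, 202 and 194 CPM in hMN-D30, 1549, 1444 and 1567 CPM in hSCNPC-P5 and 776, 706 and 703 CPM in hESC, with no overlap between these groups. The least typical were RPL39L (0.63), RPL17 (0.74) and RPS10 (0.80).

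Steps between successive groups moved nearly all members together at a few points. These steps use CPM with no scaling beyond the library total. The share of all genes that moved the same way was not computed, so the counts describe the members only. By group means 76 of 77 members were higher in NeuDet-D6 than in NeuDet-D5, with a median log2 difference of 0.31, and 67 were higher in hSCNPC-P5 than in NeuDet-D6 (0.37). At P10, 73 were lower than at P5 (-0.22). In hMN-D12, 76 of 77 were lower than in hMN-D6 (-0.56), and in hMN-D42, 76 of 77 were higher than in hMN-D30 (0.31). Other steps split the members more evenly, as in hSCNPC-P40 against P30, where 31 were higher and 46 lower. The pooled SD within groups had a median of 0.0878 on the log2 scale over the members, from 0.0497 for RPL15 and 0.0531 for RPL11 to 0.185 for RPS10, 0.447 for RPL41 and 0.797 for RPS9.

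Levels between genes were compared per kilobase of the Ensembl canonical transcript, which is far longer than the usual mRNA for some members. On that scale the highest means over the libraries were those of RPS2 (2680.3 CPM per kb), RPL13A (2049.6 CPM per kb) and RPLP0 (1949 CPM per kb), the stalk protein often used as a reference gene. Low levels were those of RPL10L (0.0233 CPM per kb) and RPL3L (0.105 CPM per kb). RPL10L and RPL3L are paralogs known from testis and from heart and skeletal muscle. The 5 highest members by counts held 18.9% of all ribosomal protein counts.

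**Figure D2:**
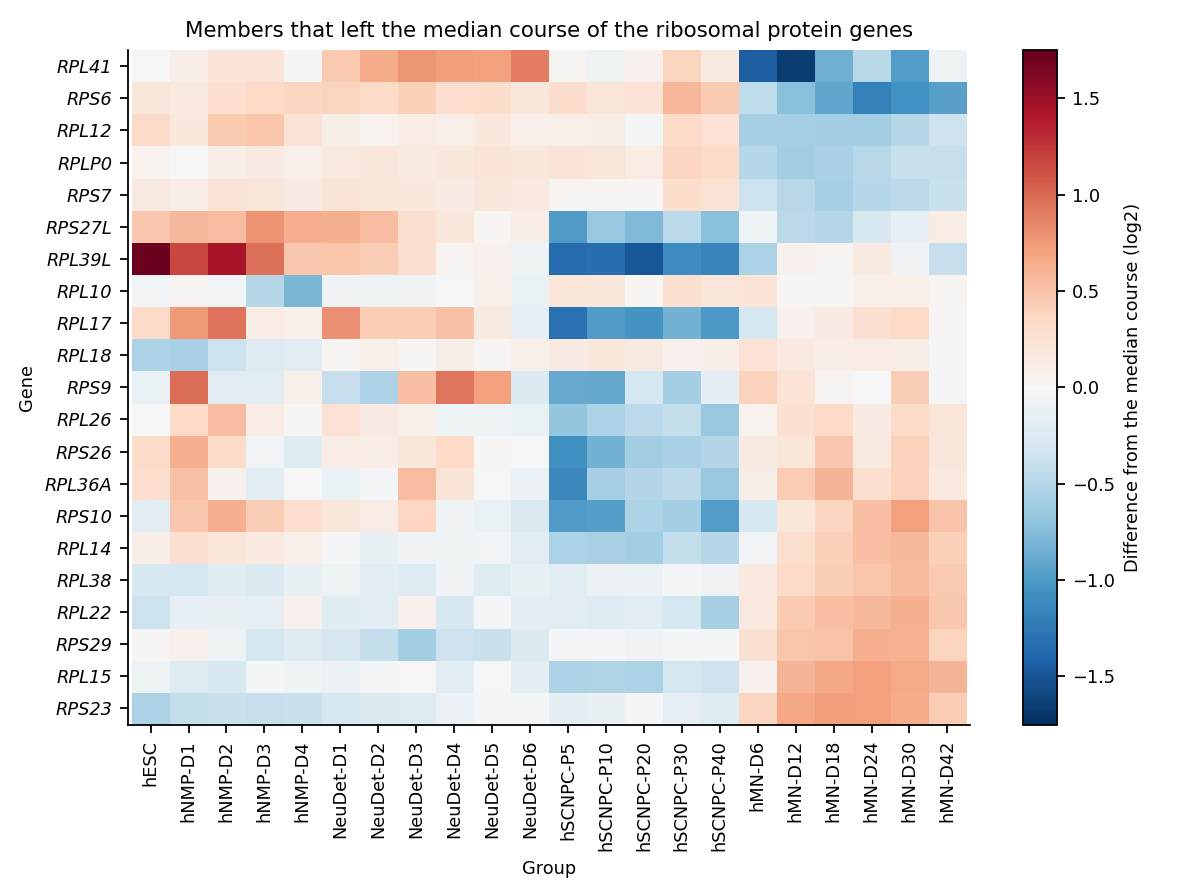
Difference of each group mean (log2 of CPM + 0.5) from the median course of the members, in log2 units by colour, for the 21 members that lay more than 0.55 from that course in at least one group; rows are genes in order of their hMN deviation and columns the 22 groups. RPL41, RPS6, RPL12 and RPLP0 stand below the common course in hMN, and RPS26, RPL15, RPS29 and RPS23 above it.

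In the fold changes below, edgeR's quasi-likelihood test was fitted to all genes that passed its filter on low counts, and a gene was called at a Benjamini-Hochberg adjusted p under 0.05. The fit of the hESC, hNMP, NeuDet and hSCNPC libraries held 21597 genes and 78 members, with RPS18 and RPL10L among those left out as too low. The fit of hMN with hSCNPC-P10 held 21175 genes and 77 members, RPL3L also being left out. Counts of members are given beside the percentage of all tested genes called, and nothing is read from them, since the courses were known when the members were chosen. Comparisons that follow each other share a group.

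In neuromesodermal progenitors most ribosomal protein genes stood moderately above their level in stem cells, with RPL39L and RPL10 as exceptions. In hNMP-D4 against hESC, 62 of 78 members were called higher, where 26.7% of all tested genes were, and 3 lower, where 27.6% were, with a median log2 fold change of 0.35. RPL22, a large subunit protein known for roles in lymphocyte development, had 211, 207 and 219 CPM in hNMP-D4 against 132, 117 and 117 CPM in hESC, which is 0.80 (SE 0.076) on the log2 scale. RPL18 had 925, 904 and 926 CPM in hNMP-D4 against 655, 521 and 509 CPM in hESC, a change of 0.71 (SE 0.077). Neither gene's libraries overlapped between the groups. RPS10 had the largest change, 1.00 (SE 0.199), but on 3.68, 3.75 and 4.85 CPM in hNMP-D4 against 2.29, 1.96 and 1.91 CPM in hESC, and 84.0% of its exon bases overlap another gene annotated on the same strand.

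The 3 members called lower were RPL3L, RPL39L and RPL10. RPL10, a large subunit protein that joins late in assembly, had 736, 609 and 487 CPM in hNMP-D4 against 886, 759.9 and 756 CPM in hESC, and its log2 fold change was -0.40 (SE 0.0738). Its hNMP-D4 libraries were spread more widely than those of hESC. RPL3L changed by -1.81 (SE 0.458) on at most 25 counts in a library. Among genes outside the rule, RACK1, a scaffold protein of the small subunit, changed by 0.38 (SE 0.0521, adjusted p = 1.61e-08) and FAU, a small subunit protein made as a fusion with a ubiquitin-like one, by 0.30 (adjusted p = 0.00105). Of 15 tested translation factors and other TOP mRNAs, 9 were called higher and 0 lower (median 0.30), led by EEF2, the elongation factor that moves the ribosome along, at 0.50 (adjusted p = 3.67e-09). Of 11 snoRNA host genes, whose spliced RNAs also carry TOP tracts, 10 were called higher and 0 lower (median 0.68), and ZFAS1 had 75.8 ± 8.20 CPM in hNMP-D4 against 23.9 ± 2.39 CPM in hESC (SD, n = 3 each), a change of 1.66 (adjusted p = 1.63e-22). Nucleolar biogenesis factors did not share one direction, with 9 of 30 higher and 9 lower (median 0.03), and of 76 mitochondrial ribosomal protein genes 25 were higher and 11 lower (median 0.08). Of 18 mitosis genes 16 were called lower in hNMP-D4 and 1 higher, their summed level being 2043 to 3030.0 CPM in hNMP-D4 against 3811 to 4104 CPM in hESC; its part in the ribosomal protein levels was not tested.

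On the first day of neural determination the members were slightly lower again. In NeuDet-D1 against hNMP-D4, 44 of 78 members were called lower, where 30.5% of all tested genes were, and 2 higher, where 25.4% were, with a median of -0.20. The count lower was 26 and the median -0.13 when the libraries numbered replicate 1 were left out, 40 and -0.22 without replicate 2, and 29 and -0.16 without replicate 3. RPL8 had 1959, 2138 and 2004 CPM in NeuDet-D1 against 2856, 3119.6 and 3082 CPM in hNMP-D4, and its libraries did not overlap (log2 fold change -0.61 (SE 0.0783)). The 2 members called higher were RPL17 at 0.49 (SE 0.0914) and RPL10 at 0.49 (SE 0.0737), and RPL10 had 860.0, 907 and 868 CPM in NeuDet-D1 against 736, 609 and 487 CPM in hNMP-D4. RPL10 was thus called against the direction of the median in both of these comparisons. RPL41 (0.24, SE 0.189), RPS9 (-0.83, SE 0.760) and RPL3L (-0.70, SE 0.538) had larger changes than most but were not called. Of the 15 TOP mRNAs outside the rule 12 were called lower and 0 higher (median -0.39), with EEF1A1, the elongation factor that delivers tRNA, at -0.64 (adjusted p = 3.53e-12) and EIF4B at -0.63 (adjusted p = 4.17e-15). Of 11 snoRNA hosts 9 were lower and 0 higher, whereas 12 of 30 biogenesis factors were higher and 8 lower (median 0.11), and 31 of 76 mitochondrial ribosomal protein genes were higher and 16 lower (median 0.11). Summed neuromesodermal markers were at 1254 to 1287 CPM in NeuDet-D1 against 232 to 457 CPM in hNMP-D4, a composition difference whose part was not tested.

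By the last day of neural determination the members were above their level on the first. In NeuDet-D6 against NeuDet-D1, 66 of 78 were called higher, where 26.3% of all tested genes were, and 3 lower, where 28.3% were, with a median of 0.35. RPL7A, a large subunit protein, had 2037, 2121 and 1792 CPM in NeuDet-D6 against 1173, 1253 and 1139 CPM in NeuDet-D1, a log2 fold change of 0.67 (SE 0.0651). RPL13 had 2219, 2574 and 2006 CPM in NeuDet-D6 against 1314, 1377 and 1298 CPM in NeuDet-D1, a change of 0.70 (SE 0.0894), and RPL41 changed by 0.80 (SE 0.19). In all 3 genes the D6 libraries were higher than every D1 library. RPL17 (-0.61), RPL39L (-0.23) and RPS27L (-0.16) were called lower. Of the 15 other TOP mRNAs 8 were higher and 3 lower (median 0.17), and 5 of 11 snoRNA hosts were higher and 2 lower. Of 76 mitochondrial ribosomal protein genes 40 were higher and 5 lower (median 0.20), and of 30 biogenesis factors 9 were higher and 10 lower (median 0.01). Summed pluripotency markers were at 954 to 1069 CPM in NeuDet-D6 against 2091 to 2146 CPM in NeuDet-D1, with 8 of 8 called lower, and summed mitosis genes at 4104 to 4462 CPM in NeuDet-D6 against 3411 to 3473 CPM in NeuDet-D1, with 9 of 18 called higher and 0 lower. Of 8 mesenchymal markers 5 were called higher and 2 lower. Their part in the ribosomal protein levels was not tested.

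At passage 5 the progenitors stood highest, and here the cytosolic ribosomal proteins and the factors that build ribosomes were called in opposite directions. In hSCNPC-P5 against NeuDet-D6, 67 of 78 members were called higher, where 28.8% of all tested genes were, and 6 lower, where 30.6% were, with a median of 0.49. RPL28 had 1641, 1598 and 1552 CPM in hSCNPC-P5 against 879, 954 and 755 CPM in NeuDet-D6, a log2 fold change of 1.01 (SE 0.0777). RPL5, which carries the smallest rRNA into the large subunit with RPL11, had 2577, 2306 and 2413 CPM in hSCNPC-P5 against 1467, 1423 and 1388 CPM in NeuDet-D6, a change of 0.89 (SE 0.0621). RPL10 had 2006, 1835 and 1826 CPM in hSCNPC-P5 against 1138, 1126 and 1113 CPM in NeuDet-D6, a change of 0.87 (SE 0.0738). None of these libraries overlapped between the groups. The 6 members called lower were RPL39L (-0.74), RPL17 (-0.65), RPS27L (-0.58), RPS26 (-0.56), RPL36A (-0.53) and RPL24 (-0.26). RPS26, the small subunit protein at the mRNA exit, had 156, 141 and 149.7 CPM in hSCNPC-P5 against 250.4, 261 and 201 CPM in NeuDet-D6, so its libraries did not overlap either.

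Of the 15 other TOP mRNAs 13 were called higher and 0 lower in this comparison (median 0.55). EEF2 had 7619.5 ± 185 CPM in hSCNPC-P5 against 3671 ± 363 CPM in NeuDet-D6 (SD, n = 3 each), a log2 fold change of 1.18 (adjusted p = 3.04e-22) by edgeR's quasi-likelihood test, and RACK1 changed by 0.70 (adjusted p = 2.18e-17). Of 30 biogenesis factors 23 were called lower and 0 higher (median -0.38). WDR12, part of a complex that processes large subunit rRNA, had 42.8 ± 0.151 CPM in hSCNPC-P5 against 96.2 ± 3.99 CPM in NeuDet-D6, a change of -1.05 (adjusted p = 9.53e-22). DDX21, a nucleolar helicase, changed by -1.04 (adjusted p = 1.74e-22) and LYAR by -1.18 (adjusted p = 6.11e-19). Mitochondrial ribosomal protein genes were also mostly lower, 56 of 76 with 3 higher (median -0.36), and MRPL52 had 36.7 ± 1.65 CPM in hSCNPC-P5 against 78.5 ± 10.9 CPM in NeuDet-D6, a change of -0.98 (adjusted p = 1.82e-13). Of 11 snoRNA hosts 4 were higher and 2 lower. Summed neural progenitor markers were at 3694 to 3733 CPM in hSCNPC-P5 against 922 to 983 CPM in NeuDet-D6, and their part in these levels was not tested. Without scaling beyond the library total the median of all genes shifted by -0.12, and 59 members were called higher and 7 lower (median 0.37).

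**Figure D3:**
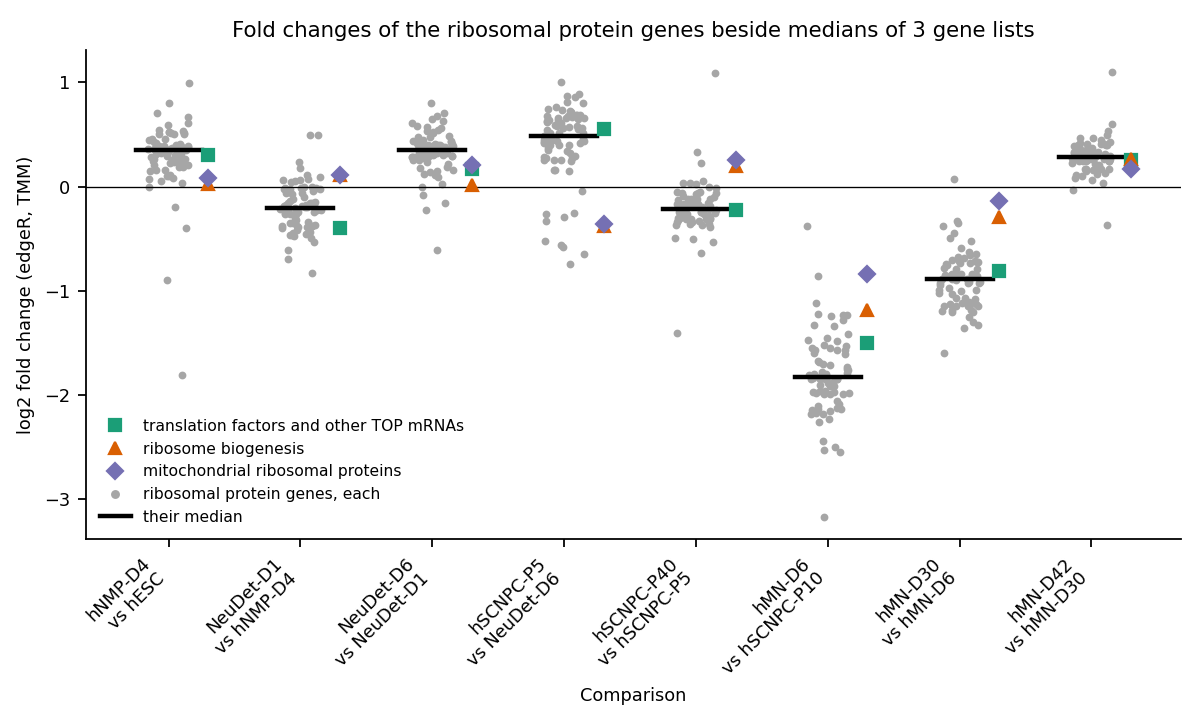
Log2 fold change in each of the 8 comparisons (the group named on the upper line of the label over the one below it), with members as grey points, their median as a black line and the medians of 3 gene lists as markers. The medians of members and of TOP mRNAs outside the rule lie above 0 in hSCNPC-P5 against NeuDet-D6 (0.49 and 0.55) while those of biogenesis factors and mitochondrial ribosomal proteins lie below it (-0.38 and -0.36).

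At passage 40 many members were lower than at passage 5 and many biogenesis factors higher, and for the members most of this difference was already there at P10, as the step from P5 to P10 given above shows. In hSCNPC-P40 against hSCNPC-P5, 46 of 78 members were called lower, where 24.1% of all tested genes were, and 1 higher, where 22.8% were, with a median of -0.22. RPS25, a small subunit protein that viral internal ribosome entry sites need, had 705, 708 and 725 CPM in hSCNPC-P40 against 1105, 1008 and 1039 CPM in hSCNPC-P5, a log2 fold change of -0.53 (SE 0.0642). RPL22 had 169, 178 and 172 CPM in hSCNPC-P40 against 296, 255 and 273 CPM in hSCNPC-P5, a change of -0.64 (SE 0.075). Both genes were lower in every P40 library than in any P5 library. The 1 member called higher was RPS26, with 189.9, 164 and 197 CPM in hSCNPC-P40 against 156, 141 and 149.7 CPM in hSCNPC-P5 (0.33 (SE 0.0977)). RPS9 (1.09, SE 0.776), RPL36A (0.23, SE 0.115) and RPL3L (-1.40, SE 0.788) were at the ends of the order but not called. Of 30 biogenesis factors 20 were called higher and 1 lower (median 0.20), with NOB1, an endonuclease that finishes small subunit rRNA, at 0.74 (adjusted p = 2.35e-12). Of 76 mitochondrial ribosomal protein genes 39 were higher and 2 lower (median 0.25), while 8 of 15 other TOP mRNAs were lower and 0 higher (median -0.23) and 5 of 11 snoRNA hosts were lower and 1 higher. Summed biogenesis factors did not move one way over the passages, with means of 5244 CPM at P5, 4917 CPM at P10, 5025 CPM at P20, 5902 CPM at P30 and 5435 CPM at P40. Summed neural progenitor markers were at 2342 to 2528 CPM in hSCNPC-P40 against 3694 to 3733 CPM in hSCNPC-P5, with 7 of 8 called lower and 1 higher. Summed glial markers were at 602 to 639 CPM in hSCNPC-P40 against 244 to 249 CPM in hSCNPC-P5, with 3 of 7 tested called higher and 3 lower, and of 8 mesenchymal markers 6 were lower and 1 higher. Their part in the ribosomal protein levels was not tested.

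In motor neurons nearly every ribosomal protein gene was several-fold below its level in progenitors. In hMN-D6 against hSCNPC-P10, 76 of 77 members were called lower, where 36.7% of all tested genes were, and 0 higher, where 38.5% were, with a median of -1.83. Of the members, 75 were called lower and past 2-fold, where 16.8% of all tested genes were. RPS26 was called lower but not past 2-fold, and the 1 member not called was RPS9, at -0.38 (SE 0.547). Without scaling beyond the library total the median of all genes shifted by 0.23, all genes split into 9972 higher and 6283 lower in place of 8157 and 7763, and the median of the members was -1.61 with 76 called lower and 0 higher.

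The members did not all drop equally far. RPLP0 had 787, 691 and 664 CPM in hMN-D6 against 3624, 3593 and 3520.1 CPM in hSCNPC-P10, a log2 fold change of -2.55 (SE 0.0568). RPL12, which forms the base of the stalk that RPLP0 is part of, had 258, 221 and 226 CPM in hMN-D6 against 1145, 1174 and 1156 CPM in hSCNPC-P10, a change of -2.53 (SE 0.0484). RPS6, the small subunit protein phosphorylated by the S6 kinases, had 459, 393 and 372 CPM in hMN-D6 against 2063, 1992 and 1850.1 CPM in hSCNPC-P10, a change of -2.49 (SE 0.0796). In none of these 3 genes did the libraries of both groups overlap. RPL41 had the lowest fold change, -3.17 (SE 0.531), with a wide error.
Among the members that dropped less than the median, RPS26 changed by -0.86 (SE 0.044), with 98.6, 97.1 and 94.7 CPM in hMN-D6 against 144, 149 and 158 CPM in hSCNPC-P10. RPL15 had 726, 657 and 645 CPM in hMN-D6 against 1352, 1390.4 and 1339.8 CPM in hSCNPC-P10, a change of -1.23 (SE 0.0419), and RPS23, at the decoding centre, had 361, 332 and 317 CPM in hMN-D6 against 746, 755 and 671 CPM in hSCNPC-P10, a change of -1.33 (SE 0.0458). RPS29 changed by -1.55 (SE 0.0557). Even these members were lower in every hMN-D6 library than in any hSCNPC-P10 library.

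The other parts of the translation machinery were lower as well. Of 15 TOP mRNAs outside the rule 14 were called lower and 0 higher (median -1.50), and PABPC1, the poly(A)-binding protein, had 619 ± 38.6 CPM in hMN-D6 against 2438 ± 56.4 CPM in hSCNPC-P10 (SD, n = 3 each), a log2 fold change of -2.20 (adjusted p = 3.47e-41) by edgeR's quasi-likelihood test. Of 30 biogenesis factors 29 were lower and 1 higher (median -1.18). FBL, the methyltransferase fibrillarin, had 48.3 ± 1.84 CPM in hMN-D6 against 286 ± 8.04 CPM in hSCNPC-P10, a change of -2.79 (adjusted p = 5.68e-43), and NPM1, nucleophosmin, changed by -2.09 (adjusted p = 2.55e-39). All 11 snoRNA hosts were called lower (median -1.67), with SNHG1 at -2.39 (adjusted p = 1.12e-38). RACK1 changed by -1.94 (adjusted p = 1.27e-39), further than FAU at -1.11 (adjusted p = 3.63e-21). Mitochondrial ribosomal protein genes were lower by less, 70 of 76 with 1 higher and a median of -0.84, against a median of 0.08 over all tested genes.
Mitosis and neuronal genes moved with these changes. Summed mitosis genes were at 95.2 to 102 CPM in hMN-D6 against 3076 to 3136 CPM in hSCNPC-P10, with 18 of 18 called lower. Summed pan-neuronal markers were at 7747 to 8109 CPM in hMN-D6 against 1063 to 1144 CPM in hSCNPC-P10, with 8 of 8 called higher. Their part in the ribosomal protein levels was not tested.

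The members fell further in motor neuron culture, mostly by day 18. Their median log2 step in CPM was -0.56 to D12, -0.22 to D18, -0.07 to D24 and 0.04 to D30. In hMN-D30 against hMN-D6, 73 of 77 members were called lower, where 30.5% of all tested genes were, and 0 higher, where 32.9% were, with a median of -0.89. RPS6 was again at the low end, with 145, 138 and 152 CPM in hMN-D30 against 459, 393 and 372 CPM in hMN-D6, a log2 fold change of -1.60 (SE 0.0807). RPS19, a small subunit protein mutated in Diamond-Blackfan anemia, had 282, 275 and 280.4 CPM in hMN-D30 against 749, 639.6 and 605 CPM in hMN-D6, a change of -1.35 (SE 0.0674). RPL14 changed by only -0.35 (SE 0.0453), with 284, 307 and 311 CPM in hMN-D30 against 390.4, 331 and 352 CPM in hMN-D6. These libraries did not overlap in any of the 3 genes. RPL15 (-0.38), RPS29 (-0.63) and RPS23 (-0.70) also changed by less than the median, as they had in the first days. The 4 members not called were RPS9 (-1.33, SE 0.624), RPS10 (0.07, SE 0.280), RPL17 (-0.33, SE 0.153) and RPL41. Of 15 other TOP mRNAs 14 were called lower and 0 higher (median -0.81), with HNRNPA1 at -1.33 (adjusted p = 4.5e-32) and EEF1A1 at -1.01 (adjusted p = 7.44e-26). Of 30 biogenesis factors 19 were lower and 3 higher (median -0.29), of 76 mitochondrial ribosomal protein genes 34 were lower and 9 higher (median -0.14), and of 11 snoRNA hosts 6 were lower and 2 higher. Summed mitosis genes were at 77.7 to 97.7 CPM in hMN-D30 against 95.2 to 102 CPM in hMN-D6, with 9 of 18 called lower and 0 higher. Summed glial markers were at 57.4 to 70.1 CPM in hMN-D30 against 18.2 to 21.3 CPM in hMN-D6, with 7 of 8 called higher, and summed mesenchymal markers at 131 to 418 CPM in hMN-D30 against 58.0 to 65.0 CPM in hMN-D6, with 5 of 8 called higher. Summed neural progenitor markers were at 511 to 536 CPM in hMN-D30 against 1553 to 1624 CPM in hMN-D6, with 6 of 8 called lower and 1 higher. Their part in the ribosomal protein levels was not tested. Without scaling beyond the library total the median of all genes shifted by 0.10, and 73 members were called lower and 0 higher (median -0.79).

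On day 42 the members were higher than on day 30, and so were genes of cells other than neurons. In hMN-D42 against hMN-D30, 66 of 77 members were called higher, where 21.8% of all tested genes were, and 0 lower, where 19.9% were, with a median of 0.29. RPS6 had 195, 206 and 194 CPM in hMN-D42 against 145, 138 and 152 CPM in hMN-D30, and RPL21 changed by 0.53 (SE 0.123). RPS27L, a paralog that p53 activates, had 34.3, 35.3 and 32.7 CPM in hMN-D42 against 23.2, 20.4 and 22.8 CPM in hMN-D30, a log2 fold change of 0.60 (SE 0.079). RPL41 (1.10, SE 0.539), RPL39L (-0.04, SE 0.143), RPL17 (0.03, SE 0.156) and RPS9 (-0.37, SE 0.750) were not called. Of 30 biogenesis factors 25 were higher and 1 lower (median 0.26), of 15 TOP mRNAs 11 were higher and 1 lower (median 0.25), of 76 mitochondrial ribosomal protein genes 35 were higher and 1 lower (median 0.16), and of 11 snoRNA hosts 8 were higher and 1 lower. Over the same days summed mesenchymal markers (COL1A1, DCN and 6 others) were at 976 to 1130.3 CPM in hMN-D42 against 131 to 418 CPM in hMN-D30, with 8 of 8 called higher. Summed glial markers were at 159.8 to 169.6 CPM in hMN-D42 against 57.4 to 70.1 CPM in hMN-D30, with 6 of 8 called higher and 1 lower. Summed mitosis genes were at 207 to 226 CPM in hMN-D42 against 77.7 to 97.7 CPM in hMN-D30, with 17 of 18 called higher. Summed pan-neuronal markers were at 5974 to 6086 CPM in hMN-D42 against 7375 to 7456 CPM in hMN-D30, with 0 called higher and 6 of 8 lower. The part of these cells in the higher ribosomal protein levels was not tested.

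Paralogs left the common course. RPL39L, the RPL39 paralog known for its use in male germ cells and some tumours, was highest in stem cells. It had 63.2, 61.9 and 64.3 CPM in hESC, 35.2, 31.9 and 34.6 CPM on day 4 of hNMP, 24.5, 29.9 and 25.8 CPM in NeuDet-D6, 16.2, 14.2 and 13.7 CPM in hSCNPC-P5 and 4.80, 6.34 and 4.37 CPM in hMN-D30. Relative to the counts of RPL39, not scaled for length, it stood at 23.9 ± 2.02% in hESC, 9.83 ± 0.228% in hNMP-D4, 2.70 ± 0.112% in hSCNPC-P5, 4.67 ± 0.400% in hMN-D6 and 9.19 ± 0.988% in hMN-D24 (SD, n = 3 each). The ratio was thus lowest in the progenitors, where RPL39 itself had 583, 516 and 534 CPM at P5, and higher in motor neurons, where RPL39 had 59.6, 71.5 and 67.4 CPM on D30.
RPS27L peaked in hNMP and was low at P5. It had 176, 163 and 151 CPM in hNMP-D4, 141, 130.5 and 126 CPM in NeuDet-D6 and 85.7, 76.0 and 83.0 CPM in hSCNPC-P5, while RPS27 had 444, 439 and 463 CPM in hNMP-D4 and 908, 886 and 868 CPM in hSCNPC-P5. Its ratio to RPS27 was 36.6 ± 3.56% in hNMP-D4, 23.9 ± 2.14% in NeuDet-D6, 9.19 ± 0.543% in hSCNPC-P5 and 21.9 ± 1.80% in hMN-D42. Most of the transcript sequence of RPL39 and of RPS27 also occurs elsewhere on the primary chromosomes, unlike that of RPL39L and RPS27L. The sizes of both ratios therefore depend on how reads with several matches were counted, which is not known.

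RPL22L1, whose symbol the rule leaves out, also left the course of its parent. It had 63.6, 54.9 and 55.5 CPM in hESC, 26.2, 21.7 and 27.2 CPM on day 4 of hNMP, 20.9, 21.7 and 22.8 CPM in hSCNPC-P20, 49.3, 54.7 and 57.1 CPM in hSCNPC-P30 and 41.3, 37.9 and 43.2 CPM in hSCNPC-P40. The libraries of P30 and P40 therefore lay above those of P20, with no overlap. In motor neurons it had 2.57, 2.87 and 2.15 CPM on D6, 2.03, 1.86 and 1.84 CPM on D30 and 4.40, 4.01 and 3.87 CPM on D42. By edgeR's quasi-likelihood test with Benjamini-Hochberg adjustment, RPL22L1 changed by -1.21 (SE 0.105, adjusted p = 3.9e-14) in hNMP-D4 against hESC and by 0.77 (SE 0.107, adjusted p = 2.93e-08) in hSCNPC-P40 against hSCNPC-P5. It changed by -3.56 (SE 0.147, adjusted p = 3.14e-27) in hMN-D6 against hSCNPC-P10 and by 1.07 (SE 0.18, adjusted p = 2.99e-06) in hMN-D42 against hMN-D30. In hSCNPC-P5 against NeuDet-D6 its log2 fold change was -0.04 (SE 0.106, adjusted p = 0.761), where RPL22 was called higher. Relative to RPL22 it stood at 47.7 ± 0.598% in hESC, 61.2 ± 1.92% in hNMP-D1, 11.8 ± 1.12% in hNMP-D4, 9.73 ± 0.196% in hSCNPC-P20, 25.9 ± 0.378% in hSCNPC-P30 and 2.61 ± 0.371% in hMN-D6.
All 4 paralogs outside the rule were called lower in hMN-D6 against hSCNPC-P10, where 36.7% of all tested genes were. RPL7L1, a nucleolar relative of RPL7, changed by -0.68 (adjusted p = 4.91e-16) in hSCNPC-P5 against NeuDet-D6 and by -0.33 (adjusted p = 6.13e-09) in hMN-D6 against hSCNPC-P10. It had 120.3 ± 3.72 CPM in hMN-D6 against 129.4 ± 3.41 CPM in hSCNPC-P10 (SD, n = 3 each). Without scaling beyond the library total the median of all genes shifted by 0.23 in this comparison. RPL26L1 changed by -0.84 (adjusted p = 3.84e-12) and RPL36AL by -1.46 (adjusted p = 1.01e-27) in hMN-D6 against hSCNPC-P10.

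**Figure D4:**
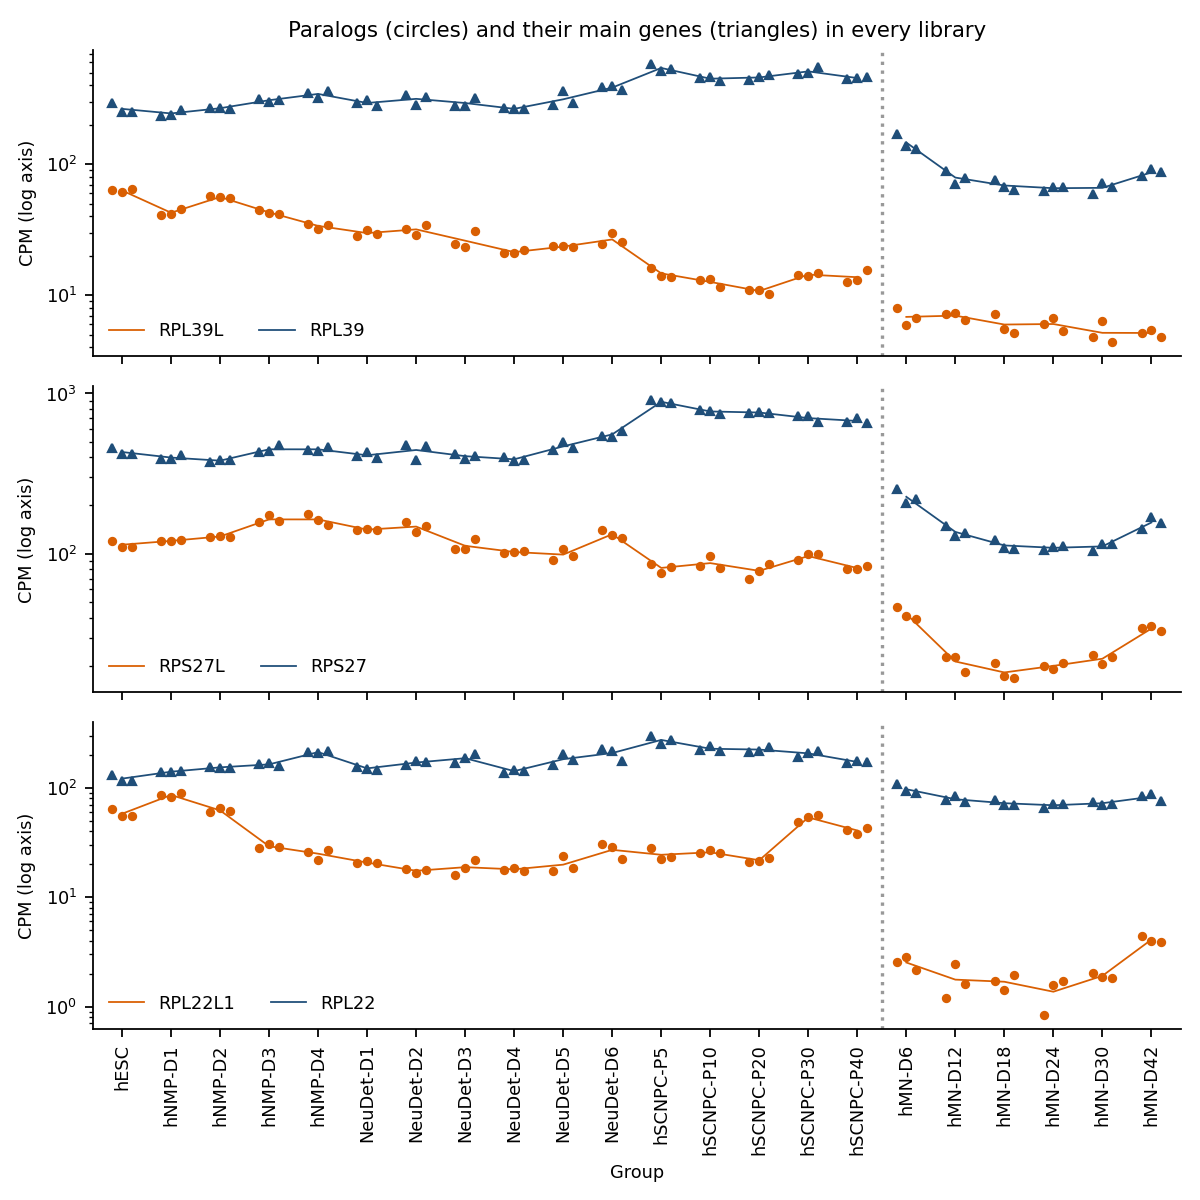
Levels of RPL39L with RPL39, RPS27L with RPS27 and RPL22L1 with RPL22 in CPM on a log axis, by group; points are libraries and lines join group means, broken where the count table changes. RPL39L is highest in hESC (61.9 to 64.3 CPM) and RPL22L1 lowest in hMN, with its lowest group mean, 1.37 CPM, on D24.

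Members with and without the start motif were set side by side, with no test of the difference. In hMN-D6 against hSCNPC-P10 the 41 tested members with the motif had a median log2 fold change of -1.85 and the 21 matched members without it -1.79. The medians were 0.44 and 0.55 in hSCNPC-P5 against NeuDet-D6 and -0.88 and -0.85 in hMN-D30 against hMN-D6. By subunit the medians were -1.85 for 30 small subunit genes and -1.83 for 47 large subunit genes in hMN-D6 against hSCNPC-P10. Across members, the Spearman correlation of the fold change with transcript length, GC content and the other gene features examined lay between -0.22 and 0.26 over the 8 comparisons, given as a description.

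A few members cannot be read at face value. For 26 of 81 members more than 50% of the 50-base stretches of the transcript occur elsewhere on the primary chromosomes, and how reads with several matches were counted is not given in the sources used here. All 50-base stretches of RPS18 and RPS9 that are found at the gene itself also occur on alternate contigs of the reference. The same holds for 88.7% of those of RPL9 and 54.1% of those of RPL41. Stretches that also occur elsewhere on the primary chromosomes were not left out of these percentages. Over 40% of the exon bases of RPL17 (96.9%), RPS10 (84.0%), RPL26 (65.3%) and RPL36A (43.8%) are shared with another gene on the same strand. RPL41, which encodes the shortest ribosomal protein, had 569, 469 and 234 CPM in hESC, 103, 92.5 and 51.2 CPM in hMN-D6, 39.7, 126 and 17.7 CPM in hMN-D12 and 143, 140.5 and 142 CPM in hMN-D42. Its libraries within a group thus differed by up to several-fold, unlike those of other abundant members. RPS9 held 6 to 463 counts in a library, with 2.62, 2.64 and 15.3 CPM in hSCNPC-P40, where the third library stood alone. RPS18 was at 0 counts in 49 libraries, which allows up to 0.212 CPM, and at 448.6 CPM in a single library, the third of NeuDet-D3. The part of sequence copies in these values was not tested.

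**Figure D5:**
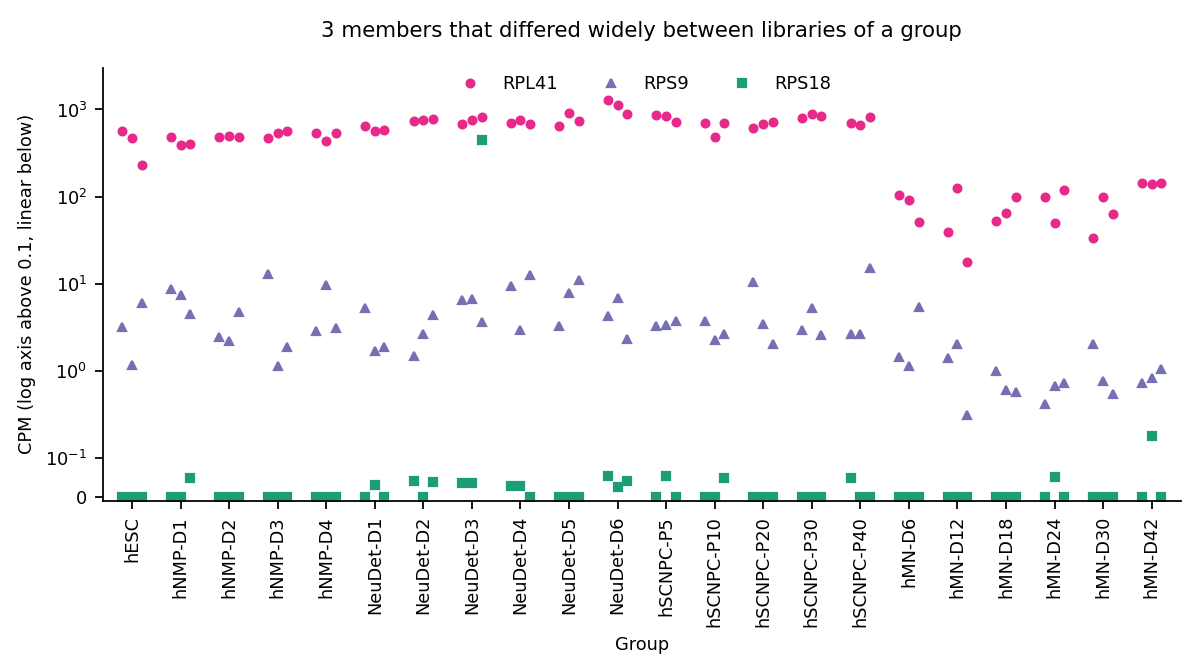
Levels of RPL41, RPS9 and RPS18 in every library, in CPM with the log axis as labelled, by group. RPL41 ranges from 17.7 to 126 CPM within hMN-D12 alone, and RPS18 is at 448.6 CPM in one NeuDet-D3 library and at or below 0.177 CPM in the others.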

How the data were processed

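RNA was extracted with TRIzol and sequenced as paired-end reads. The authors trimmed the reads with fastp, aligned them with HISAT2 2.1.0 to hg38 and counted them per GENCODE gene with featureCounts 1.5.3, and deposited raw counts in one table for hESC to hSCNPC and one for hMN. The GENCODE release, the strand setting and the counting of reads with several matches are not given in the sources used here. Of 60603 gene IDs, 60261 (99.4%) were matched to symbols in GENCODE 44.

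CPM values are counts scaled to the same total in every library, with no further scaling. Fold changes came from edgeR 4.0.16 (glmQLFit and glmQLFTest, TMM scaling, filterByExpr, Benjamini-Hochberg adjustment over all tested genes, threshold 0.05) in R 4.3.3, with 1 coefficient per group and no covariate, one fit for the 48 libraries of the first table and one for the 18 hMN libraries with hSCNPC-P10. The other steps used Python 3.11.15, and the fits were tested on simulated data. Groups came from the titles. No 2 of the 66 pairs of replicates held identical values, and their chi-square per degree of freedom over genes with at least 20 counts was 1.89 to 25.3, so none was treated as a copy.

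The genes named are, in each comparison, the 3 members with the highest and the 3 with the lowest fold change, the paralogs with their parents, the 3 members most and least like the median course, the 3 highest and lowest per kilobase, and of each list up to 4 members with the largest change among those called. RPS6 in the first motor neuron comparison, RPS23, RPS29, RPL15 and the marker examples were chosen after their values were seen, and results on some genes are not reported here. The members and lists were chosen with earlier results of these data known. The alternatives tried were RLE scaling, no scaling, TMM without the members, no filter, DESeq2 1.42.0, a replicate block, each replicate left out, the compared groups alone and, for the share, other denominators. Intervals and limits for counts of 0 (3 counts) cover counting error only. Start windows came from the RefSeq promoter table of GRCh38.p14, with the first entry listed for each gene. RPL39L and 16 other members had no entry there.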

Additional observations from a re-analysis of the deposited data

Results flagged for a closer look

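RPS18, a small subunit protein whose gene was too low for either fit, gave a signal in a single library. It stood at 448.6 CPM (12082 counts) in the third NeuDet-D3 library, against 0 to 3 counts in the other 65 libraries, the next highest of which was at 0.177 CPM. No other gene in that library was above 100 CPM and at more than 10 times its level in every other library. All of the 50-base stretches of its transcript that are found at the gene itself also occur on alternate contigs of the reference.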

How the results depend on the processing

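The direction of the members held in every comparison under all alternatives run, and the counts called stayed within 1.5 times the main count with the following exceptions. In NeuDet-D1 against hNMP-D4 the 44 members called lower were 26 to 40 when each replicate number was left out, and the 2 called higher were 4 when only the compared groups were fitted. In NeuDet-D6 against NeuDet-D1 the 3 called lower were 1 without scaling, without the filter on low counts, without replicate 3 and when only the compared groups were fitted. The cause was not tested. The median log2 fold change moved by more than the median SE of the members in hNMP-D4 against hESC (0.28 to 0.46 when each replicate number was left out, 0.35 with all) and in hMN-D30 against hMN-D6 (-0.81 without replicate 1, -0.89 with all), and without scaling as given above. The replicate block changed no direction: with it 43 members were called lower in NeuDet-D1 against hNMP-D4, 45 lower in hSCNPC-P40 against hSCNPC-P5 and 68 higher in hMN-D42 against hMN-D30, and the same numbers as without it in the other 5 comparisons. Deviations of libraries with the same replicate number had correlations of -0.034 to 0.052 over all genes of a fit. Counting noise weakens such values, so they cannot exclude pairing. In hNMP-D4 against hESC 3 of 3 libraries correlated best with their own number, and in NeuDet-D1 against hNMP-D4 0 of 3 did. The labels do not state a pairing, so the numbers were not taken to pair the libraries. The share of counts moved beyond 1 SD in 16 of 22 groups when mitochondrially encoded genes were left out of the total. It did so in 12 when only protein-coding genes were counted and in 13 with pseudogenes added. It did so in 0 groups without RPL41, an alternative chosen after seeing the data. Leaving 1 of 3 libraries out cannot move a group mean by 1 SD, whatever the values. The share without each replicate was therefore no check against that limit. Depth limits RPL10L, RPL3L, RPS10 and RPS9, which held few counts.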

Other observations

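Growth regulators did not share one course with the ribosomal protein genes. MYC, a transcription factor known to activate ribosomal protein and biogenesis genes, had 6.89 ± 0.954 CPM in hNMP-D4 against 52.9 ± 2.38 CPM in hESC (SD, n = 3 each), a log2 fold change of -2.95 (adjusted p = 8.01e-28) by edgeR's quasi-likelihood test, where most members were called higher. It had 25.4 ± 1.44 CPM in hSCNPC-P5 against 2.53 ± 0.348 CPM in NeuDet-D6, a change of 3.42 (adjusted p = 1.68e-29), and changed by -2.97 (adjusted p = 1.3e-25) in hSCNPC-P40 against hSCNPC-P5. In hMN-D6 it had 73.2 ± 2.19 CPM against 30.4 ± 0.985 CPM in hSCNPC-P10, a change of 1.04 (adjusted p = 2.04e-23), where MYCN changed by -1.36 (adjusted p = 1.36e-31) and MYCL by -2.60 (adjusted p = 3.16e-36). Of the 15 growth regulators (the MYC family, mTOR complex 1 and its translation targets) 3 were called higher and 9 lower there, where 38.5% of all tested genes were higher and 36.7% lower, and 7 higher and 5 lower in hSCNPC-P5 against NeuDet-D6, where 28.8% were higher and 30.6% lower.

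RNA polymerase I genes, which serve rRNA transcription, were called lower for 8 of 12 with 2 higher in hSCNPC-P5 against NeuDet-D6 (median -0.52). In that comparison 28.8% of all tested genes were higher and 30.6% lower, and in hMN-D6 against hSCNPC-P10 38.5% were higher and 36.7% lower. RNA polymerase I genes were higher for 8 with 1 lower in hSCNPC-P40 against hSCNPC-P5 (0.31), where 22.8% of all tested genes were higher and 24.1% lower, and lower for 11 with 0 higher in hMN-D6 against hSCNPC-P10 (-0.70). Of 16 p53 targets 13 were called higher and 1 lower in hNMP-D4 against hESC (median 0.83), where 26.7% of all tested genes were higher and 27.6% lower, with MDM2 at 1.35 (adjusted p = 5.17e-20) and FAS at 1.91 (adjusted p = 2.28e-19). In NeuDet-D1 against hNMP-D4, 2 were higher and 9 lower, where 25.4% of all tested genes were higher and 30.5% lower, with MDM2 at -1.41 (adjusted p = 8.03e-21), and in hSCNPC-P5 against NeuDet-D6, 2 were higher and 12 lower (median -0.67). In hMN-D6 against hSCNPC-P10, 1 was higher and 14 lower (median -1.31), and in hMN-D42 against hMN-D30, 12 were higher and 0 lower (0.31), where 21.8% of all tested genes were higher and 19.9% lower. In NeuDet-D6 against NeuDet-D1, hSCNPC-P40 against hSCNPC-P5 and hMN-D30 against hMN-D6 the p53 targets were called in both directions, with medians of -0.08, 0.11 and 0.07.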
